A study of Drosophila melanogaster with 3 samples.

Results

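The regions described are peaks of the tagged Chiffon protein at one-way promoters of the Drosophila melanogaster genome. A peak belongs to the class when its summit lies within 500 bp of the annotated start of a protein-coding transcript, and when every protein-coding start within 500 bp of the summit is on the same strand. The class was set by position and strand alone, with no measured value. The irreproducible discovery rate (IDR) procedure selects peaks by how alike they rank between lists of regions. Of 3684 peaks in the list that passed it, 1048 (28.4%) met the rule. A further 593 summits had protein-coding starts on both strands within 500 bp and are called two-way, and 2043 had no protein-coding start in reach. One-way peaks thus made up 63.9% of the 1641 promoter peaks.

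Chromatin immunoprecipitation followed by sequencing was done on whole embryos of both sexes pooled, aged 0 to 24 h, in 3 biological replicates. All 3 replicates carry the same transgene, strain chif-RA-GFP, which adds GFP to the C-terminal end of the product of transcript RA of chif (chiffon), and all were precipitated with an antibody against GFP after sonication to 200 to 800 bp. The labels do not name the promoter that drives the transgene, and no untagged or input library was analysed here. With 1 group, every comparison is between classes of regions within the same embryos, whose many cell types and stages are mixed. Chiffon is related to Dbf4 of yeast and mammals, the partner that activates the Cdc7 kinase at replication origins, and another product of the gene binds the acetyltransferase Gcn5. A fly promoter holds short sequence elements that recruit different proteins. The DRE is bound by DREF and, through the letters CGATA within it, by the insulator protein BEAF-32. Motif 1 is bound by M1BP, GA repeats by the GAGA factor that the gene Trl encodes, and the TATA box by the TATA-binding protein. DRE and motif 1 are known from genes active in most cells, and TATA boxes and GA repeats from regulated genes.

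The sequences under the summits are shown first, because the report turns on what they hold and on where they lie. Each reaches 60 bp to either side of a summit and is read from the RefSeq sequence of the dm6 assembly in the direction of the gene, and each ends upstream of the start and outside every annotated exon. The first 6 belong to the 20 strongest members found in all 3 replicates. Capitals mark matches, on either strand, to any of the 15 motifs that were searched. Those of housekeeping promoters were TATCGATA for the DRE, ATCGAT for a shorter form of the same element, CGATA for the binding sequence of the insulator protein BEAF-32, and GGTCACAC for motif 1. Elements of the core promoter were searched as TATAAA for the box bound by the TATA-binding protein, TCAGT for the initiator element where many transcripts begin, AGACGTG for the element downstream of it (DPE), and TCTTTT for a pyrimidine run. Sites of other factors were searched as GAGAG for the protein that the gene Trl encodes, CACGTG for the E-box of basic helix-loop-helix proteins, CAGGTAG for the early embryonic activator Zelda, AGATAA for zinc finger proteins of the GATA family, and GCCAT for the core of the sites of the Polycomb recruiter Pho. The simple repeats were CACACACA and, as a run of a single base, AAAAAAAA. The shorter form and CGATA overlap the DRE.
CG14100: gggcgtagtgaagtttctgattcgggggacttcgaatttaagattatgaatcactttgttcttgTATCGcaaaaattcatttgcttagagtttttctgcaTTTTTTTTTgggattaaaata
ph-p: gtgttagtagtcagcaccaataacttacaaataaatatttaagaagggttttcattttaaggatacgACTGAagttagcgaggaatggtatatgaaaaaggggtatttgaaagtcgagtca
CG31145: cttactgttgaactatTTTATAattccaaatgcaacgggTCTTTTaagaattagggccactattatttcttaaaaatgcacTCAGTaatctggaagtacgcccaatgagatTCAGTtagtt
CG18549: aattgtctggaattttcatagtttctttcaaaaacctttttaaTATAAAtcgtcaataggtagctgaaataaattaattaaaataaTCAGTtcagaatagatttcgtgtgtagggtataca
larp: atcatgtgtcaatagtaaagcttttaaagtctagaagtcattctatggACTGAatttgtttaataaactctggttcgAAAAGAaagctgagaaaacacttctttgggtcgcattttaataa
Rtnl1: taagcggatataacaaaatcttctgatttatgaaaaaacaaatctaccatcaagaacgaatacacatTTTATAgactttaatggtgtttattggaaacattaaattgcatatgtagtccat
These windows lie at chr3L:19590567-19590687 (minus strand), chrX:2137275-2137395 (minus), chr3R:23669768-23669888 (minus), chr3R:12449111-12449231 (plus), chr3R:28326543-28326663 (minus) and chr2L:4997606-4997726 (minus). Their GC content ran from 25.6% to 33.9%, and none holds the DRE, motif 1 or GAGAG letters. Matches in the 6 printed windows were to the TATA box, the initiator, the pyrimidine run, the BEAF-32 letters and the run of A, each in some of the windows.

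The next windows belong to 4 strong members with GAGAG inside the window and to 3 members with the DRE letters TATCGATA, the latter chosen after their values were seen. Capitals mark GAGAG on either strand in the first 4 and TATCGATA in the last 3. The genes are CG9743, cbt (a zinc finger transcription factor), moody (a receptor of the glia that seal the blood-brain barrier), Acsf2, kibra (a component of the Hippo pathway), htk and PolA1 (the catalytic subunit of DNA polymerase alpha).
CG9743: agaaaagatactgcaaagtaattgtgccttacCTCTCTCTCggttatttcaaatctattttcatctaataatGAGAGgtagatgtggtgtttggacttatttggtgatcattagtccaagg
cbt: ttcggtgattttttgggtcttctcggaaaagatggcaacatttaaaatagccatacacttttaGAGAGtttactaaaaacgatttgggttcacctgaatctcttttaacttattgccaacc
moody: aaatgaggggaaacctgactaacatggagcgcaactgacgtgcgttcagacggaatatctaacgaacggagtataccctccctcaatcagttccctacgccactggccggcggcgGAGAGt
Acsf2: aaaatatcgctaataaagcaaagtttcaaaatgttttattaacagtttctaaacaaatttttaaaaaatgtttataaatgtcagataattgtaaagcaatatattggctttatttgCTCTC
kibra: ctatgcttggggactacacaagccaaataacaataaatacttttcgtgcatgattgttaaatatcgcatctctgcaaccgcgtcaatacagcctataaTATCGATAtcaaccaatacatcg
htk: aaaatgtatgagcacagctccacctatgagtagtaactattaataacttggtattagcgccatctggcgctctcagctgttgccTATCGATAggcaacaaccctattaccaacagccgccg
PolA1: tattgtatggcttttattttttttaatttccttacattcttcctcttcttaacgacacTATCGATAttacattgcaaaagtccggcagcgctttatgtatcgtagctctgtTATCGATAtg
They lie at chr3R:30203404-30203524 (minus), chr2L:480034-480154 (minus), chrX:2050213-2050333 (minus), chr2L:5342560-5342680 (minus), chr3R:14724327-14724447 (minus), chrX:18843506-18843626 (plus) and chr3R:21671751-21671871 (minus). Summits of the 4 GAGAG windows lay 153 to 466 bp upstream of the start and had signal values of 433 to 633. Summits of the 3 DRE windows lay 61 to 126 bp upstream and had signal values of 149 to 236. These 3 are not the strongest members with the DRE letters. The member at Alg3, whose window is not printed, holds them within 100 bp of its summit and had a signal value of 708.5. The printed windows are therefore examples, and their signal values are not compared between the motifs. The PolA1 window holds 2 matches to TATCGATA. The signal value is the score the authors gave each region. Its scale is not stated, so it is used only within a list.

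The replicates can be compared only through their ranked lists of 30000 regions each. The lists hold no counts of reads, and library depth is unknown. The 3684 regions of highest signal value in a replicate are called its highest regions, and the rest, where they touch none of these, its lower-ranked regions. Replicate 1 stood apart: its −log10 q value at the 3684th region was 0.735, against 2.69 and 2.90 in replicates 2 and 3. Of the 1048 members, 50 had no region at all in the list of replicate 1, against 2 in replicate 2 and 6 in replicate 3. Regions of the class also overlap: 64 members overlap another member and 1016 separate stretches remain when these are joined, so neighbouring members can share the same region of a replicate.

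The class was of similar size in each replicate. By the same rule, 948 of the highest regions of replicate 1, 1049 of replicate 2 and 1076 of replicate 3 were one-way, which is 62.6%, 63.3% and 67.3% of their promoter regions (64.4% ± 2.56, SD, n = 3). Among lower-ranked regions of the pooled list one-way regions made up 82.4% of promoter regions, so two-way promoters held a larger part of the highest promoter regions than of the lower-ranked ones. Of the members, 182 lay on 2L, 221 on 2R, 215 on 3L, 235 on 3R, 191 on X and 4 on chromosome 4. X held 17.7% ± 0.674 (SD, n = 3) of one-way highest regions and 10.8% ± 1.22 of two-way ones. The difference was 6.94 ± 0.553 percentage points and had the same sign in 3 of 3 replicates (exact two-sided sign-flip permutation test over replicates, p = 0.25). The one-way share is near the 18.5% of all IDR peaks and the 15.7% of protein-coding genes that lie on X. With 3 replicates 0.25 is the smallest p this test can give, so no comparison below can pass a threshold of 0.05, and each is read against the spread between replicates.

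One-way summits mostly sat upstream of the start. In the IDR list the median offset was -138.5 bp, with quartiles of -247 and -44.0 bp, and 881 summits were upstream and 167 downstream. In the replicates the median distance to the nearest start, without sign, was 168, 163 and 167.5 bp for one-way and 75.5, 80.0 and 76.0 bp for two-way highest regions. The groups do not overlap, but the rule itself uses these distances: a summit with starts on both strands in reach has more starts near it. The distances of the classes are therefore a description, with no test, and how much of the gap follows from the rule was not tested. Summits within 100 bp of a start made up 31.6% ± 0.768 of one-way and 65.6% ± 1.35 of two-way highest regions.

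Position also differed between the highest and the lower-ranked one-way regions. The lists hold background as well as peaks, so lower-ranked regions need not be weak promoter peaks. Of those in the pooled list 22.3% had the summit in a coding exon, against 1.05% of members. Of one-way highest regions 80.0%, 81.4% and 77.8% lay upstream in replicates 1, 2 and 3, against 42.5%, 47.7% and 47.1% of one-way lower-ranked regions. The difference was 34.0 ± 3.39 percentage points (SD, n = 3; exact sign-flip permutation p = 0.25), and it was in the same direction in 3 of 3. The stretch from 100 to 300 bp upstream held 39.6% ± 1.85 of the highest and 18.7% ± 1.07 of the lower-ranked one-way regions. Of the 167 downstream members 58 lay in an intron, 8 in a coding exon and the others in a UTR exon, and 53 were within 50 bp of the start.

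**Figure D1:**
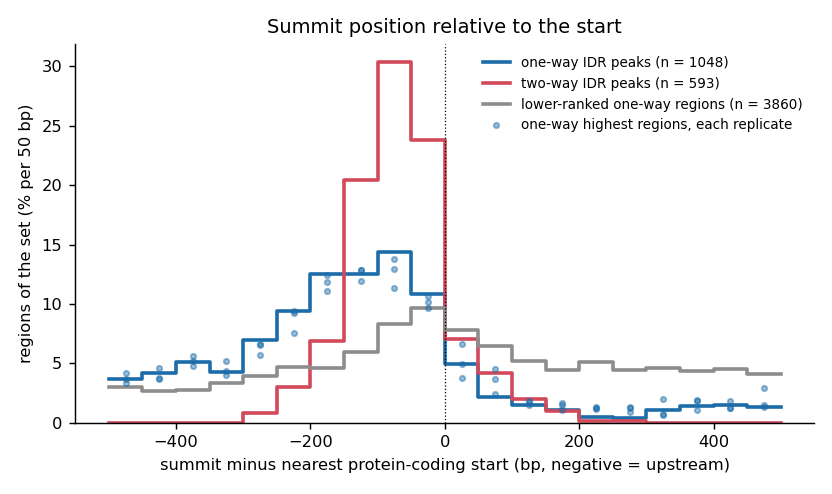
Share of regions per 50 bp (y axis) by summit minus nearest protein-coding start in bp (x axis) for one-way IDR peaks, two-way IDR peaks and lower-ranked one-way regions of the pooled list, with dots for one-way highest regions of each replicate. One-way peaks spread from the start to about the edge of the window with a median of -138.5 bp, two-way peaks crowd within 100 bp, and lower-ranked one-way regions are split nearly evenly around the start.

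At the edge of the rule, CG6602 (-500 bp), ced-6 (500 bp) and wkd (-499 bp) were the members just inside, with signal values of 147, 111 and 146. The peaks just outside with starts on 1 strand were at mEFTu1 (-502 bp), rib (506 bp) and CG43736 (-509 bp), with signal values of 105, 112 and 398.

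The members differed among themselves by where the summit lay. This grouping was made after the data were seen: 340 members lay within 100 bp of the start, 434 over 100 and up to 300 bp upstream, 182 over 300 and up to 500 bp upstream and 92 over 100 and up to 500 bp downstream. The DRE letters TATCGATA were in 11.8% of the windows near the start, taken 100 bp to each side of the summit. Their share was 2.76% and 0.549% in the upstream classes and 1.09% downstream. The motif 1 letters GGTCACAC fell off in the same order of distance, from 7.94% to 1.61%, and to 0 of 182 and 0 of 92 windows. CGATA, which is part of TATCGATA, was in 50.3% of windows near the start and in 25.8% of those 100 to 300 bp upstream. The TATA box letters TATAAA ran the other way, at 18.8% near the start and 34.8% in the windows 100 to 300 bp upstream. Shares for all promoters at these same positions were not computed. The differences by position are therefore not read as particular to the members.

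The replicates showed the same split between members near the start and those 100 to 300 bp upstream. The DRE letters were in 14.8%, 11.98% and 10.4% of near windows and 1.98%, 3.75% and 2.78% of upstream windows in replicates 1, 2 and 3, so the classes do not overlap. The difference was 9.55 ± 2.83 percentage points (SD, n = 3). For CGATA it was 23.5 ± 4.46 points, for motif 1 it was 5.41 ± 1.83 points and for TATAAA it was -14.4 ± 2.86 points. GC content was higher by 5.44 ± 1.40 percentage points near the start. Each of these differences had 1 sign in 3 of 3 replicates (exact sign-flip permutation p = 0.25). GAGAG was lower near the start by 9.19, 5.11 and 1.94 points in replicates 1, 2 and 3.

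**Figure D2:**
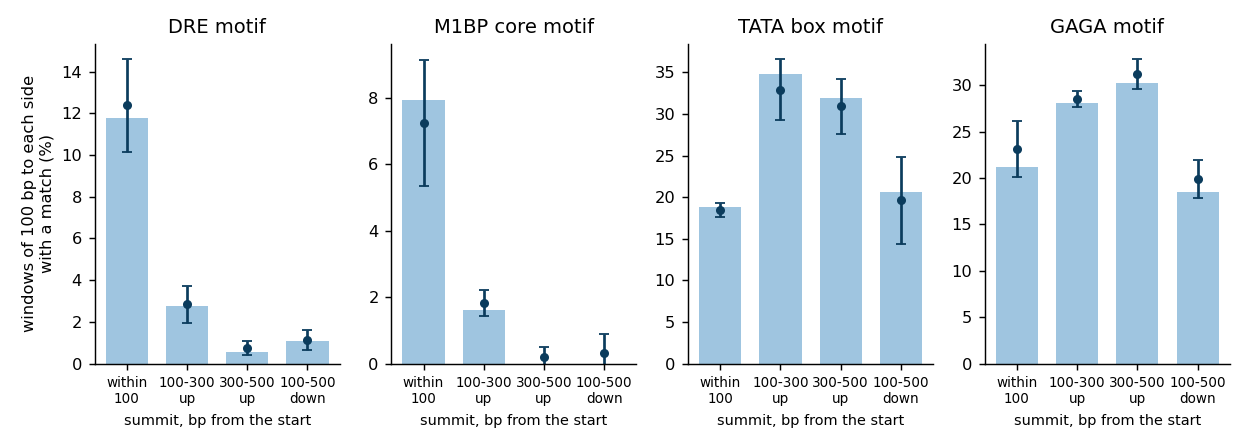
Share of windows, 100 bp to each side of the summit, with a match (y axes, each with its own scale) for 4 motifs by the position of the summit relative to the start (x axes). Bars are the one-way IDR peaks, and points with error bars are the mean and SD of one-way highest regions over 3 replicates. DRE and motif 1 matches are concentrated in members within 100 bp of the start, and TATAAA and GAGAG matches are more frequent upstream.

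Members near the start were the weaker and less often recovered ones. Their median IDR signal value was 127, against 161 for those 100 to 300 bp upstream, and 166 of 340 (48.8%) overlapped the highest regions of all 3 replicates, against 285 of 434 (65.7%) and 127 of 182 (69.8%) in the upstream classes. Over all IDR peaks that share was 59.1%. Genes with a summit near the start were also shorter, with a median length of 3617 bp against 7077 bp for 100 to 300 bp upstream and 10238 bp for 300 to 500 bp upstream. In replicates 1, 2 and 3 the medians were 3117, 3798 and 4215 bp near the start and 7846, 7108 and 7454 bp at 100 to 300 bp upstream.

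The one-way class as a whole differed from the two-way class in the motifs it held. GAGAG was in 266 members (25.4%) and in 13.5% of two-way peaks, against 22.1% of all IDR peaks, 25.04% of 19253 windows placed 138 bp upstream of every protein-coding start and 24.0% of all pooled regions. Across replicates 1, 2 and 3 it was in 25.5%, 25.8% and 27.4% of one-way and in 13.1%, 11.8% and 15.5% of two-way highest regions. The groups do not overlap, and the difference was 12.8 ± 1.10 percentage points (SD, n = 3; exact sign-flip permutation p = 0.25). The members' share is close to that of the windows at all starts, which were placed near the members' own median offset. Two-way summits had a median offset of -70 bp, and no windows at all starts were computed there. Which class departs from promoters at large is therefore not read from this gap, nor from those in other motifs or GC content below. Lower-ranked one-way regions of the same replicates held GAGAG in 26.2% ± 0.933 of windows, as against 26.3% ± 1.01 of the highest ones.

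In both promoter classes GAGAG was sparser around the summit than on either side of it. Per 100 members there were 7.73 matches in the central 40 bp, 5.44 in the 40 bp next to it on the upstream side, 15.9 in the bin centred 160 bp to the upstream side and 17.9 in the bin centred 160 bp to the downstream side, counting overlapping matches in a repeat each time. In two-way peaks the matching values were 2.02, 7.25 and 4.72 for the centre and the bins 160 bp to the upstream and downstream side. In one-way highest regions 51.8% ± 1.18 had a match 51 to 250 bp from the summit, against 29.6% ± 2.49 of two-way and 44.6% ± 0.954 of one-way lower-ranked regions (SD, n = 3). The differences were 22.2 ± 1.48 and 7.24 ± 0.797 percentage points, and each had the same sign in 3 of 3 replicates. Within 100 bp of the summit the GAGAG letters were on the strand of the gene in 119 members and on the other strand in 171, some members having both.

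The DRE letters were in 54 members (5.15%), against 10.6% of two-way peaks and 3.37% of all IDR peaks, and in 4.12% of windows at all starts and 1.71% of all pooled regions. In replicates 1, 2 and 3 they were in 5.49%, 5.53% and 4.83% of one-way and 11.3%, 11.3% and 11.7% of two-way highest regions. The groups do not overlap, with a difference of -6.16 ± 0.601 percentage points (SD, n = 3; exact sign-flip permutation p = 0.25). The motif 1 letters were in 34 members (3.24%), against 5.90% of two-way peaks and 2.09% of all IDR peaks, 2.23% of windows at all starts and 1.37% of pooled regions. CGATA was in 33.4% ± 0.942 of one-way and 45.2% ± 1.93 of two-way highest regions, and TATAAA in 26.4% ± 2.88 and 36.7% ± 1.05. These compare with 33.1% and 31.4% of the windows at all starts.

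For the remaining listed motifs most gaps were smaller. The initiator letters TCAGT were in 35.2% ± 0.555 of one-way and 30.1% ± 1.35 of two-way highest regions, and in 29.9% of windows at all starts. The CA repeat CACACACA was in 3.99% ± 0.408 and 1.47% ± 0.377 of them, and in 4.08% at all starts. The E-box, the Zelda, GATA and Pho letters, the DPE and the run of A had no single sign over the 3 replicates. The shorter DRE form was in 13.3% ± 0.795 and 23.0% ± 0.704 of one-way and two-way highest regions, against 13.1% at all starts, and the pyrimidine run in 24.0% ± 1.13 and 22.4% ± 0.728. CACTGTG was added after the data were seen and is a description: it was in 9.35% of members, 4.55% of two-way peaks, 3.94% of lower-ranked one-way regions of the pooled list, 2.68% of windows at all starts and 4.44% of all pooled regions. It was also in 8.31% of all IDR peaks and 8.86% of those at no promoter, so the members' share is near that of the IDR list. The shorter letters CACTG, added in the same way, were in 49.1% of members and 51.9% of all IDR peaks. In one-way highest regions of replicates 1, 2 and 3 the longer CACTGTG was in 9.92%, 7.44% and 7.81% of windows.

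One-way windows had a GC content near that of the windows at all starts, and two-way windows were lower in GC than one-way ones. The mean GC content was 38.6% over the windows at all starts. Members had a median GC content of 37.3%, with quartiles of 33.3% and 42.3%. Across replicates 1, 2 and 3 the mean was 39.9%, 37.99% and 38.6% for one-way and 36.4%, 35.8% and 36.3% for two-way highest regions. The highest two-way value is below the lowest one-way value, and the difference was 2.68 ± 0.749 percentage points (SD, n = 3; exact sign-flip permutation p = 0.25). One-way lower-ranked regions had 45.6% ± 2.24. Along the gene, members had 36.9% GC in the bin centred 120 bp to the upstream side of the summit and 45.6% in the bin centred 200 bp to the downstream side. How far position, composition and motif shares depend on each other was not tested.

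**Figure D3:**
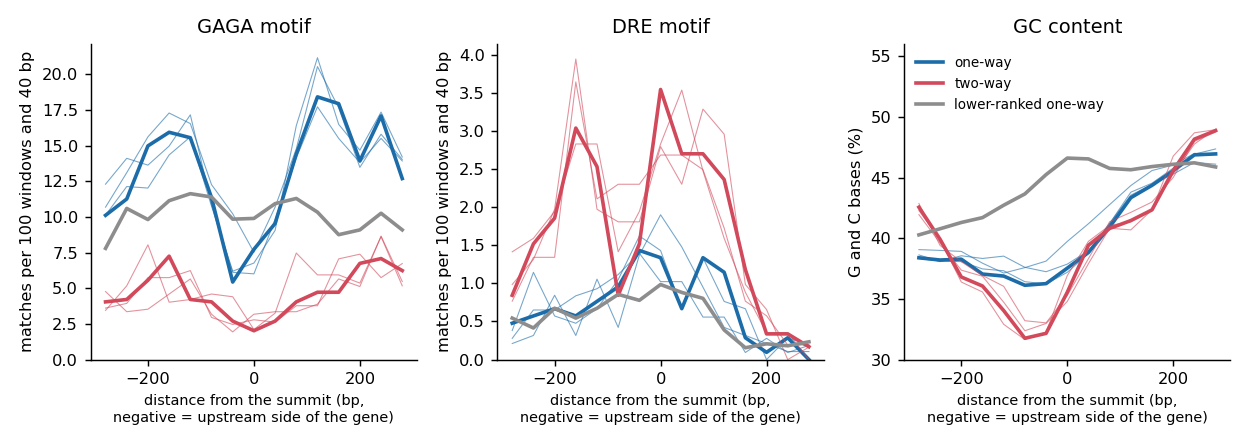
Matches per 100 windows and 40 bp for the GAGA motif (GAGAG) and the DRE (TATCGATA), and percent G and C bases, by distance from the summit in bp along the direction of the gene. Thick lines are IDR peaks and lower-ranked pooled regions, and thin lines are the highest regions of each replicate. GAGAG matches in one-way peaks dip to 7.73 at the summit between shoulders of 15.9 and 17.9, and GC content rises to the downstream side.

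The members lay at 977 of 13945 protein-coding genes, or 7.01%, counting every gene with a start within 500 bp of the summit. In replicates 1, 2 and 3 the same rule gave 900, 976 and 1004 genes, and 582 genes were found in all 3 and in the IDR list. A single gene was in reach of 1021 members. The genes were long and had several starts: the median length was 5349 bp against 2166 bp for all protein-coding genes and 2453 bp for genes at two-way peaks. The median first intron was 685 bp against 98 bp for all genes, and 57.5% had more than 1 start against 26.5%. The replicates gave median lengths of 5138, 5485 and 6053 bp. Genes are not replicates, and a gene with more starts has more chances to be counted.

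Where a gene had several starts, members lay more often at an alternative start than at the main one. The main start is that of the transcript Ensembl tags as canonical, and a nearest start within 50 bp of it counted as main. Of 635 members at genes with several starts, 270 (42.5%) were at the main start and 365 (57.5%) at an alternative one. This equals what the annotation offers, since 42.5% of the 9361 starts of such genes lie within 50 bp of the main start. Across replicates 1, 2 and 3 the main start took 40.3%, 42.0% and 42.3% of such one-way regions, and 61.1%, 59.0% and 62.3% of two-way ones. The groups do not overlap, and the difference was -19.2 ± 2.00 percentage points (SD, n = 3; exact sign-flip permutation p = 0.25). What the annotation offers was computed over all genes with several starts and not for two-way promoters. The gap is therefore not read as a preference of two-way peaks for main starts. Among members at alternative starts, the main start lay upstream for 239 and downstream for 126, at a median distance of 2029 bp. Median signal values were 152 at main and 156 at alternative starts, and 61.5% and 62.7% were in the highest regions of all 3 replicates. DRE letters were in 7.26% of members at genes with 1 start, 5.19% at main and 2.74% at alternative starts.

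The 5 strongest members at alternative starts were those of px, Ugalt, ph-p, PNPase and larp. The plexus gene px, which patterns wing veins, had the summit of its member 47762 bp downstream of the main start, in an intron (chr2R:22514139-22514472). The member of larp, a La-related RNA-binding protein, had its summit 9837 bp from the main start, and also lay in an intron. The other summits were closer to it, at 152 bp for Ugalt (a UDP-galactose transporter), 94 bp for PNPase (a mitochondrial RNA exonuclease) and 713 bp for ph-p.

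A total of 892 genes had 1 member, 74 had 2 and 11 had 3 or more. The genes dnc, Ptpmeg2 and Rtnl1 had 4 each. Rtnl1, the reticulon that shapes tubules of the endoplasmic reticulum, has 7 starts, and its members lay 285, 294, 200 and 223 bp upstream of 4 of them, all in introns. Their signal values were 828, 144, 208 and 371, and all 4 were in the highest regions of 3 replicates. Ptpmeg2, a tyrosine phosphatase with 6 starts, had members with signal values of 390, 652, 93.6 and 397. The 3 stronger ones lay 166, 190 and 167 bp upstream of their starts and were in all 3 replicates, and the weak one lay 16 bp downstream and was in 1. The 4 members of dnc, the cAMP phosphodiesterase needed for learning, spread over a gene of 167328 bp with 9 starts, and a pair of them overlaps at 1 start.

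Members lay both between and within genes: 525 members (50.1%) lay between genes, 345 (32.9%) in an intron, 167 (15.9%) in a UTR exon and 11 (1.05%) in a coding exon. Two-way peaks were in an intron in 10.3% of cases. The nearest gene upstream of the start pointed the same way for 529 members (50.5%) at a median distance of 780 bp, and the other way for 417 (39.8%) at 2250 bp. The nearest protein-coding start on the other strand was 4212 bp from the summit at the median, and for 131 members it was over 500 and up to 1000 bp away. A non-coding gene started on the other strand within 500 bp of 58 members, so for 990 no annotated start of either kind opposed the gene.

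Recovery in the replicates was described by class and by signal value. Of the members, 633 (60.4%) overlapped the highest regions of all 3 replicates, which is near the 59.1% of all IDR peaks, 251 those of 2, 150 those of 1 and 14 those of none. The IDR list was itself derived from these replicate lists, so the shares describe it and are no independent check. A rise of recovery with its signal value follows in part from that derivation, so signal value and class are not weighed against each other. Per replicate 76.6%, 84.4% and 82.3% of one-way and 84.3%, 90.9% and 83.0% of two-way peaks were recovered, and the values overlap between the classes. The difference was -4.92 ± 3.78 percentage points (SD, n = 3; exact sign-flip permutation p = 0.25), and it turned to 2.86 when only the IDR peaks above the median signal value and the 1842 highest regions per replicate were used together. With that cut on the IDR peaks alone, an alternative added after the data were seen, it was -0.278 (exact permutation p = 1). In the lowest signal quartile of the IDR list 24 of 279 members (8.60%) were in all 3 replicates, and in the highest quartile 297 of 299 (99.3%). The ranks of the 990 members with a region in all 3 lists were related between replicates, with Spearman's rho across regions of 0.74 for replicates 1 and 2, 0.69 for 1 and 3 and 0.78 for 2 and 3. Regions are not independent replicates, so these values carry no p.

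**Figure D4:**
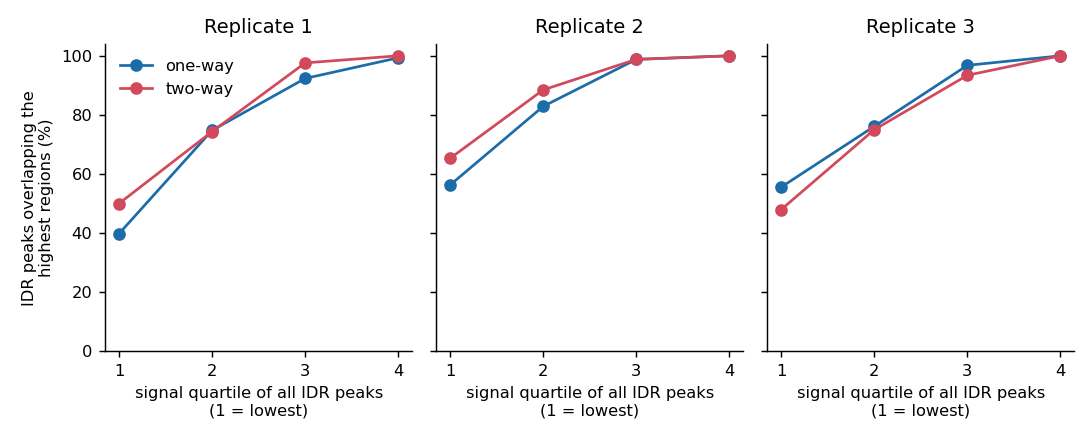
Share of IDR peaks that overlap the 3684 highest regions of each replicate (y axis) by signal quartile of the IDR list (x axis, 1 lowest), for one-way and two-way peaks. Shares rise from 39.8% to 99.3% for one-way peaks in replicate 1, and one-way peaks are below two-way ones in the lowest quartile of replicates 1 and 2 and above in replicate 3.

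By signal rank within a replicate the classes differed little. The median rank among the highest regions was 1525, 1751 and 1857 for one-way and 1335, 1674 and 1696 for two-way regions in replicates 1, 2 and 3, so the values overlap between replicates. One-way regions ranked lower by 142.5 ± 58.6 places (SD, n = 3; exact sign-flip permutation p = 0.25), and the sign turned, to -3.50, among the 1842 highest regions of each replicate. Signal values of the members ran from 92.4 to 2044, with a median of 148 and quartiles of 110.0 and 228, and 34 of the 100 strongest IDR peaks were members.

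The 20 strongest members were chosen by signal value in the IDR list and for lying in the highest regions of all 3 replicates. Their high ranks in each replicate follow in part from that choice and are a description. The peak at CG14100 (chr3L:19590445-19590801, offset -103 bp) had a signal value of 2044 and ranked 1, 2 and 2 in replicates 1, 2 and 3. The peak of px, with 1673, ranked 3, 8 and 3, and that of Ugalt, with 1571, ranked 4, 4 and 8. CG1888 followed with 1440 and mRpL41, a protein of the mitochondrial ribosome, with 1406. The member of ph-p, a subunit of Polycomb repressive complex 1, lay 480 bp upstream of an alternative start with a signal value of 1372 and ranked 5, 13 and 15. PNPase had 1227, CG31145 had 1021 and Sox14, an HMG-box transcription factor of the ecdysone response, had 999.8. CG18549, GstE13 (a glutathione S-transferase), larp, Rtnl1, Fkbp14 (a prolyl isomerase of the endoplasmic reticulum), CG13921, MFS10, gish (casein kinase 1 gamma), brwl, Alg3 (a mannosyltransferase of N-glycan assembly) and Hpf1 (a partner of the PARP enzyme) had values from 969.6 down to 696. None of these 20 ranked below 129 in replicate 1, 79 in replicate 2 or 109 in replicate 3. Of the 20, 18 had summits upstream of the start, 11 were at the main start, 5 held GAGAG and 1 (Alg3) held the DRE letters.

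The 5 strongest members found among the highest regions of 1 replicate or none were those of Obp99b, scrt, blot, sick and HmgZ. Obp99b, an odorant-binding protein, ranked 793 in replicate 2 and 4241 and 4360 in replicates 1 and 3. The member at scrt, a zinc finger factor of neurons, ranked 786 in replicate 1 and 4217 and 5497 in the others. The member at HmgZ ranked 1639 in replicate 3 and 3875 and 4577 in replicates 1 and 2. The signal values in the IDR list were 156 for Obp99b and 135 or less for the others.

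The gene chif itself had 1 member, at chr2L:16350156-16350551 on the minus strand. Its summit lay 71 bp upstream of an alternative start of chif, inside the gene Hyls1 on the same strand, and its signal value was 219.9. It ranked 593, 1002 and 1565 in replicates 1, 2 and 3 and so was among the highest regions of each. The transgene also carries chif sequence, and reads from the native gene and from the transgene cannot be told apart.

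Genes of the cytosolic ribosome were the list most often at one-way peaks, among the 26 lists looked at. Of 93 genes, 35 (37.6%) had a member, against 7.01% of all protein-coding genes, and 30 more were at a two-way peak only. In replicates 1, 2 and 3 there were 33, 32 and 30. The strongest members were at RpL23A (signal value 490, ranks 93, 204 and 152), RpL22 (343, ranks 292, 382 and 388), RpL24 (335, ranks 429, 406 and 282) and RpS10b (312, ranks 398, 313 and 813), and the weakest had a signal value of 93.1. Taking the strongest member of each gene, 34 of 35 summits were within 100 bp of the start, against 32.4% of all members, and the median distance was 29.0 bp.

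Their windows also differed from those of other members. Across replicates 1, 2 and 3 the median distance was 43.0, 25 and 27 bp at ribosomal protein genes and 174, 170.5 and 171 bp at other genes. The DRE letters were in 33.3%, 30.3% and 33.3% of windows at ribosomal protein genes, against 4.48%, 4.72% and 4.02% at others. That is also above the 12.4% ± 2.21 (SD, n = 3) of all one-way highest regions within 100 bp of a start. The pyrimidine run TCTTTT was in 63.6%, 63.6% and 66.7% of them, against 21.6%, 22.3% and 24.1% at others and 22.6% of windows at all starts. The windows at other genes and at all starts were centred farther from the start than those at ribosomal protein genes. No share of TCTTTT at matched distance was computed, so position and kind of gene are not separated here. Ribosomal protein genes of animals are known to start within a pyrimidine-rich TCT element. Of the strongest IDR member of each of the 35 genes, 11 held TATCGATA, 5 held GGTCACAC and 3 held GAGAG.

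Translation factors were the list next in share, with 11 of 54 genes (20.4%; 11, 9 and 10 in the replicates). They included eIF6 (signal value 649, ranks 55, 86 and 100), eEF1gamma (524), eIF3c (254) and eEF2 (236), and 9 of the 11 summits were within 100 bp of the start. Over all genes 7.01% were at a one-way peak and 8.01% at a two-way peak only. Among other lists of generally active genes, mitochondrial ribosomal proteins had 2 of 73 one-way and 13 two-way only, oxidative phosphorylation 0 of 87 and 11, splicing factors 0 of 31 and 6, nuclear pore and transport 0 of 29 and 9, and autophagy 0 of 20 and 6. Aminoacyl-tRNA synthetases had 1 of 32 (PheRS-m), proteasome subunits 2 of 32 (6.25%, Rpn11 and Rpn10) and vesicle traffic 5 of 96 (5.21%), among them Syx4 with 262. For oxidative phosphorylation the highest regions of replicates 2 and 3 gave 3 and 2 one-way genes. For splicing factors those of replicate 2 gave 1, and for autophagy those of replicate 3 gave 1. At a share of 7.01% lists of 20 to 31 genes would hold few, so their counts of 0 are not read as an absence.

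Among lists of developmental genes, shares ran from below to above the 7.01% of all genes. Signalling components had 9 of 57 genes (15.8%; 7, 9 and 9 in the replicates), among them spi (an EGF receptor ligand, signal value 480), cact (the inhibitor of Dorsal, 288), hpo (the Hippo kinase, 213) and InR (the insulin receptor, 167), at a median distance of 172 bp, near the 170.5 to 174 bp of regions at genes other than those of the ribosome. Muscle and heart genes had 5 of 33 (15.2%; 4, 7 and 3 in the replicates), among them Msp300 (a nesprin, 627), sls (the titin-like Sallimus, 331), if (an integrin subunit, 140.0) and tin (the heart homeobox gene tinman, 117), with none of the 5 strongest summits within 100 bp of the start. Nervous system genes had 5 of 43 (11.6%; 3, 3 and 6), among them elav (an RNA-binding protein of neurons, 499.7, ranks 194, 114 and 126) and numb (a cell fate determinant, 169.7). Hox and segmentation genes had 1 of 39, bcd, whose maternal mRNA sets the anterior end (187).

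Chromatin, transcription, replication and cell cycle lists had shares of 3.23% to 11.1%, around the 7.01% of all genes. Polycomb and trithorax group genes had 3 of 31, which were ph-p, Trl (262) and lolal (208), with 3, 3 and 6 in the replicates, and insulator and interband genes had 3 of 27, which were Trl, BEAF-32 (119) and the kinase gene JIL-1 (93.4). DNA replication had 4 of 44, namely chif, PolA1 (149), the primase gene Prim1 (146) and Top2 (113), and cell cycle regulators had Dp (the E2F partner, 297), BubR1 (127), polo (112) and mad2 (97.9) of 41. The summit counted for Prim1 was nearest to a start of another gene, CG7083. General transcription machinery had 5 of 69, led by Polr2F (319), TfIIA-S (221), Taf4 (214) and MED4 (186). SAGA and ATAC coactivators had 1 of 31, Ada2b, whose summit lay 448 bp downstream of the start (203).

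Against the same 7.01% of all genes, chemosensory receptors had 0 of 179, cuticle proteins 1 of 117 (Cpr65Av), cytochrome P450 genes 3 of 83 and chorion and vitelline membrane genes 0 of 16. Chaperones had 3 of 36 (8.33%), Hsp83 (335), Hsp27 (303) and Hsp26 (252), all in 3 of 3 replicates, and germline genes had bgcn (263), Sxl (181) and tud (100.4) of 32 (9.38%).

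**Figure D5:**
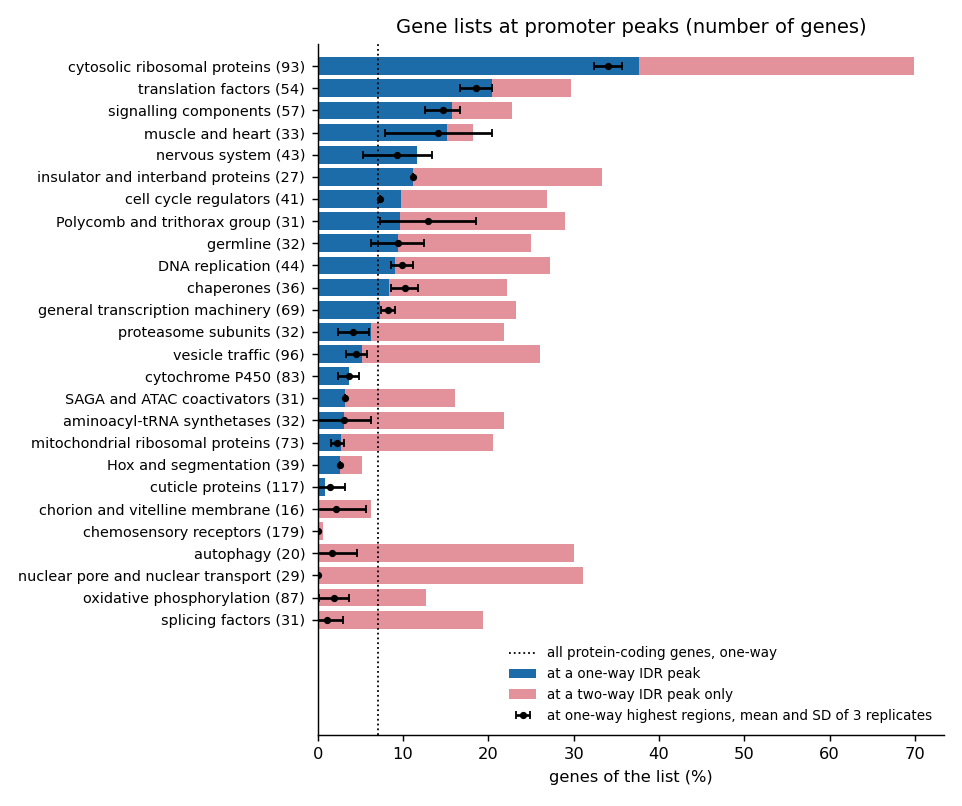
Share of each gene list (x axis, percent, with the number of genes beside the name) at a one-way IDR peak and, stacked, at a two-way IDR peak only. Points and bars are the mean and SD over 3 replicates for one-way highest regions, and the dotted line is the 7.01% of all protein-coding genes. Cytosolic ribosomal proteins lead with 37.6%. The splicing, nuclear pore, autophagy, oxidative phosphorylation, chemosensory receptor and chorion lists have no gene at a one-way IDR peak.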

How the data were processed

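The deposited dm6 region lists of 3 replicates, their pooled list and the IDR list were used. Per the deposited file listings, the replicate lists hold peaks and background made as input for IDR, and the IDR list was derived from them. How reads were aligned, which program called the regions and what IDR threshold applied is not given in the sources used here. Each region carries a signal value, a score set by the authors, on a scale they do not state. The −log10 q is the authors' deposited value, and the offset of the summit within its region is another value of the deposited lists. No counts or depths were available, so no interval that needs them is given. Starts were those of 30748 protein-coding transcripts of Ensembl release 115 (BDGP 6.54). Sequence came from the RefSeq dm6 assembly, and 0 regions ended beyond their chromosome. Members, gene lists, motifs and tests were chosen with earlier results of these data known. No match was found for 11 symbols of the gene lists. Motifs were exact matches on both strands in windows of 100 bp to each side of a summit, and ATCGAT and CGATA overlap TATCGATA. Overlaps needed 1 bp. Classes were compared per replicate with an exact sign-flip permutation test over the 3 differences. Genes were named by rule: chif, the 20 strongest members found in all 3 replicates, up to 4 per list, the 3 peaks on either side of the limit, the 5 strongest at alternative starts and the 5 strongest in 1 replicate or none. Genes with several members were named after their values were seen. The scripts were checked on simulated regions (Python 3.11.15, numpy 2.4.6, pandas 2.3.3, scipy 1.17.1, matplotlib 3.10.9).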

Additional observations from a re-analysis of the deposited data

How the results depend on the processing

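No paired analysis was possible because all 3 replicates form 1 group of samples, so no other group shares their numbers. The classes of regions were compared within each replicate. Of 75 values recomputed under the alternatives, 58 kept their direction or size, 15 moved and 2 reversed; the cause was not tested, except where fewer regions enter by construction. With 2 choices changed together, only the IDR peaks above the median signal value and the 1842 highest regions per replicate, the recovery of one-way minus two-way peaks reversed to 2.86 percentage points and the rank difference to -3.50, while members fell to 547, genes to 532 and the median offset to -152 bp. In 2 alternatives added after the data were seen, the recovery difference was -0.278 with the cut on the IDR peaks alone and -4.72 with 1842 highest regions alone. The share of promoter peaks that are one-way was 71.7% with starts within 250 bp, 61.1% with 1 main start per gene and 60.3% when non-coding starts count for the strand rule. The median offset was -96.5 bp from the main start of the nearest gene. The share at the main start was 46.0% with the start shared by most transcripts. Leaving out each replicate, and keeping members found in both others, gave 686 to 749 members (fewest without replicate 2), 645 to 708 genes, shares of 60.8% to 61.9%, median offsets of -154.5 to -146 bp and 41.2% to 42.5% at the main start; the GAGAG difference ran from 12.2 to 13.2 points and the DRE difference from -6.34 to -5.81. GAGAG differed by 5.80 points in windows of 50 bp to each side. With 3 replicates no test can pass 0.05, and with no counts the depth behind a missing region is unknown.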
